A study of Mus musculus with 8 samples.

Results

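Cholesterol and fatty acid synthesis was followed through 36 genes of the sterol regulatory element binding protein (SREBP) pathway, chosen by gene symbol from the 24346 genes listed for each of 8 RNA libraries. They comprised 5 SREBP regulators, 17 sterol genes, which encode the enzymes from acetyl-CoA to cholesterol, and 14 fatty acid genes. All 36 genes were above 0 in at least 1 library and were tested, and all but Acacb averaged 1 FPKM or more (fragments per kilobase of transcript scaled to the mapped fragments of the library). The libraries came from primary adipose-derived stem cells (ADSCs) of wild-type BALB/c mice, isolated from the gonadal fat of 12-week-old males. Cells of mice 2, 3, 4 and 5 were grown in conventional 2D culture, and cells of mice 1, 4, 5 and 7 as 3D cultures, in which they form organoids in Matrigel, a basement membrane gel. Mice 4 and 5 therefore gave a library of each kind. Several media with and without Wnt3a and R-Spondin1 were described for the 3D cultures, and which of them the sequenced cultures received, and at which passage, is not given in the sources used here. The medium, the matrix and the shape of the culture cannot be told apart in this comparison.

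Cells build cholesterol from acetyl-CoA through mevalonate, farnesyl diphosphate, squalene and lanosterol, and build fatty acids from the same acetyl-CoA through malonyl-CoA. Both routes are controlled by the SREBPs, transcription factors made as membrane proteins of the endoplasmic reticulum. The escort protein Scap carries them to the Golgi for cleavage when sterols are low, and the Insig proteins hold Scap back when sterols are plentiful. Srebf2 is known mainly for sterol genes and Srebf1 for fatty acid genes, and adipose tissue is among the main sites of fatty acid synthesis in mice.

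The study describes the cells as mesenchymal stem cells, and the libraries were compared with marker genes of that and other cell types. Of 12 stromal markers, 9 were lower and 1, Ly6a, was higher in 3D, and their median log2 fold change was -4.40. Pdgfrb and Dcn were at 0 in every 3D library. Of 12 epithelial markers, 11 were higher in 3D, their median log2 fold change was 6.37, and their summed level was 31.8 to 694 normalized FPKM in 2D and 2723 to 3183 in 3D. In 2D, mesothelial markers summed to 824 and 2122 for mice 3 and 4 but to 1.99 and 0.525 for mice 2 and 5, and to 1.57 to 33.7 in 3D. Markers of dividing cells summed to 113 to 266 in 2D and 42.8 to 115 in 3D, and 3 of 5 were lower in 3D. Adipocyte markers summed to 20.1 to 129 in 2D and 0.296 to 0.546 in 3D, 3 of 6 tested were lower in 3D, and Adipoq and Lep were at 0 in every library. Epididymis, macrophage and endothelium markers summed to at most 5.00, 42.3 and 6.79, and of these only Cd68, a macrophage marker, passed the test, higher in 3D. Of the 5 macrophage markers, 3 had a positive log2 fold change and 2 a negative one. The latter, Adgre1 and Lyz2, were at 0 in every 3D library. In bulk RNA, fewer cells of a type and less RNA per cell cannot be told apart. The part of these cell type and cell cycle markers in the differences described here was not tested.

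Called sterol genes were lower in 3D, and most called fatty acid genes were higher. With limma's adjusted p below 0.05, 6 of 17 sterol genes were lower and 0 were higher in 3D, whereas 7 of 14 fatty acid genes were higher and 1, Scd1, was lower. Of the regulators, Srebf1 and Srebf2 were higher and Insig1 was lower. The background was high, since 21.2% of all 18862 genes tested were higher and 20.3% were lower in 3D. Among 12577 genes averaging 1 FPKM or more, 27.1% were higher and 26% were lower. The median log2 fold change was -0.35 over the sterol genes and 0.40 over the fatty acid genes, beside 0.00 over all genes tested. The fatty acid median was 0.20 in the values as deposited, 0.19 with median ratio scaling, 0.21 without Acacb and 0.62 without the 2D library of mouse 4. The sterol median was -0.16 without the 2D libraries of mice 2 and 5, and 11 of 17 sterol genes were not called. In normalized FPKM, the 2D and 3D libraries did not overlap for 3 regulators, 5 sterol genes, all of them lower, and 8 fatty acid genes, 7 of them higher. Such separation was found for 53.8% of genes averaging 1 FPKM or more. With a ratio of mean normalized FPKM above 2 or under 0.5 and an unadjusted p below 0.05, Srebf1, Acacb, Acss2 and Acsl1 were higher and Insig1, Mvk, Mvd, Hsd17b7 and Scd1 were lower, against a background of 17.6% higher and 17.1% lower. Mvd lay at the limit of 0.5. When the fold was taken from the fitted log2(normalized FPKM + 1) values instead, Srebf1, Acss2, Insig1, Hsd17b7 and Scd1 passed, against 15.3% higher and 15.3% lower. When the mouse was added as a replicate block, the culture difference came from mice 4 and 5 alone, which gave both cultures. That fit left 1 residual degree of freedom. In it, 0 genes of any list were called, and Srebf1, Srebf2, Mvk, Ebp, Fasn, Scd1, Scd2, Elovl5 and Acss2 had an unadjusted p below 0.05. That limit was met by 5216 of all 18862 genes tested and by 4231 of the 12577 genes averaging 1 FPKM or more.

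**Figure D1:**
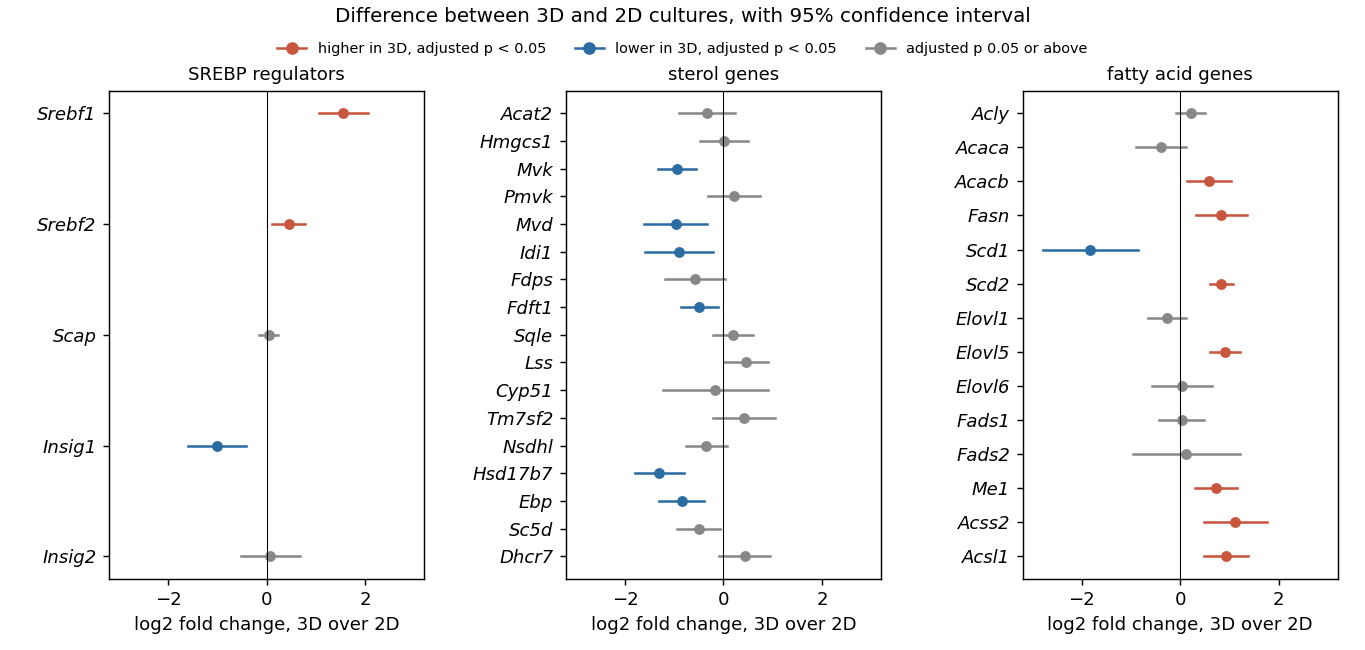
The log2 fold change of 3D over 2D cultures on the log2(normalized FPKM + 1) scale is shown for the 36 genes, in panels of regulators, sterol genes in pathway order and fatty acid genes. Points are limma estimates, bars are 95% confidence intervals and colour marks the call. All called sterol genes lie left of 0, and of the called fatty acid genes Scd1 alone lies left of it.

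The scaling of the libraries bears on these counts. After quantile normalization, the median log2 fold change was -0.04 over 3293 genes with a mean of 20 to 100 FPKM and -0.06 over 680 genes of 100 to 1000 FPKM. In the values as deposited the same medians were -0.32 and -0.62, and they were 0.10 over 5375 genes of 5 to 20 FPKM. Of the members, 18 lay between 20 and 100 FPKM and 2, Scd2 and Fads2, between 100 and 1000. With the values as deposited, 4279 of all 18862 genes tested were higher and 4069 were lower, against 4000 and 3823 after quantile normalization. In those values, 8 sterol genes were lower and 2, Lss and Dhcr7, were higher, and 4 fatty acid genes were higher. The members that lost their call were Srebf2, Fasn, Scd2 and Me1, and those that gained one were Fdps, Sc5d, Lss and Dhcr7. Scaling by median ratios gave the same calls of members. The log2 fold changes of Scap, Hmgcs1, Sqle, Acly, Fads1 and Fads2, none of them called, had the opposite sign under these scalings. No called member reversed. Changes are reported here relative to the quantile-normalized distribution, and so is the separation of libraries. In the values as deposited, the 2D and 3D libraries overlapped for Srebf2, Fasn and Me1.

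Normalized FPKM values are given below for the 2D libraries in the order of mice 2, 3, 4 and 5 and for the 3D libraries in the order of mice 1, 4, 5 and 7. Among the regulators, Srebf1, which encodes SREBP-1, stood at 21.5, 23.0, 21.7 and 17.1 in 2D and at 98.5, 50.6, 52.5 and 60.1 in 3D. Every 3D library was above every 2D library, and that of mouse 1 was the highest. The mean rose from 20.8 ± 2.60 to 65.4 ± 22.4 (SD, n = 4), and the log2 fold change was 1.56 (SE 0.21, adjusted p by limma = 9.0e-04). This gene kept its call whichever single library was left out and in mice 4 and 5 alone, where the log2 fold change was 1.38 (limma's adjusted p = 0.021).

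Srebf2, which encodes SREBP-2, measured 34.4, 26.9, 26.7 and 34.9 in 2D and 38.4, 44.2, 50.8 and 35.7 in 3D. The groups were separated after normalization, but the 3D library of mouse 7 lay just above the 2D libraries of mice 2 and 5. The log2 fold change was 0.45 (SE 0.14, adjusted p by limma = 0.038). It was 0.15 in the values as deposited (adjusted p = 0.45), and the call was also lost without the 2D library of mouse 3 or 4 or the 3D library of mouse 4 or 5. Srebf1 made up 31.0% to 46.1% of the summed Srebf1 and Srebf2 FPKM in 2D and 50.8% to 70.0% in 3D. These shares do not depend on a scaling factor per library, and they did not overlap.

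Insig1, which retains Scap in the endoplasmic reticulum and is itself a known SREBP target, gave 45.01, 30.4, 32.3 and 52.1 in 2D and 16.97, 24.5, 23.9 and 12.6 in 3D. All 3D libraries were below all 2D libraries. The mean fell from 40.0 ± 10.3 to 19.5 ± 5.72 (SD, n = 4), and the log2 fold change was -1.01 (SE 0.25, adjusted p by limma = 0.015). Its paralog Insig2 ranged from 9.70 to 19.4 in 2D and from 12.0 to 18.3 in 3D and did not pass the test. The 2D libraries of mice 3 and 4, which hold mesothelial markers, had the lower Insig1 and the higher Insig2 levels of that group. Without those of mice 2 and 5, Insig1 was no longer called. Scap, the escort protein, ranged from 19.8 to 23.5 in 2D and from 21.0 to 24.9 in 3D, with a 95% confidence interval of the log2 fold change from -0.15 to 0.24.

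**Figure D2:**
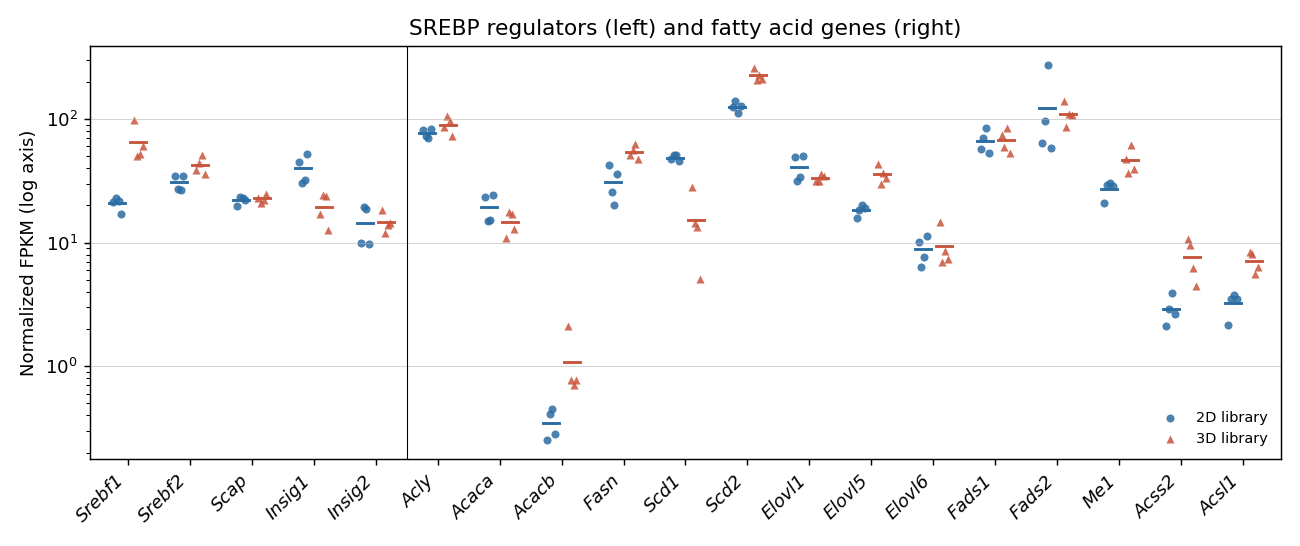
Normalized FPKM on a log axis is plotted for the regulators on the left and the fatty acid genes on the right, with 1 point per library and a bar at the mean of each culture (2D circles, 3D triangles). Srebf1 and Scd2 are higher and Scd1 is lower in all 3D libraries, and the 2D library of mouse 4 stands out at 276 for Fads2.

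In the mevalonate segment of the sterol route, Mvk and Mvd were lower in 3D. Mvk, the kinase that first phosphorylates mevalonate, was at 19.3, 13.7, 14.5 and 20.3 in 2D and at 9.65, 7.14, 9.08 and 7.10 in 3D. The groups were clearly apart, with the 2D libraries of mice 2 and 5 the highest. Its mean fell from 16.9 ± 3.35 to 8.24 ± 1.32 (SD, n = 4), and the log2 fold change was -0.95 (SE 0.17, adjusted p by limma = 0.0028). Mvd, which makes isopentenyl diphosphate, measured 17.2, 14.4, 16.2 and 23.8 in 2D and 5.66, 13.2, 10.6 and 6.35 in 3D. The 3D library of mouse 4 approached the 2D library of mouse 3 without reaching it. Its log2 fold change was -0.97 (SE 0.27, adjusted p by limma = 0.023), and the call was lost without the 2D library of mouse 2 or 5 or the 3D library of mouse 7.

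The other genes of the first steps were not called. Hmgcs1, which makes HMG-CoA, ranged from 39.0 to 58.1 in 2D and from 32.7 to 60.0 in 3D, with a 95% confidence interval of the log2 fold change from -0.47 to 0.51. Acat2, the cytosolic thiolase, ranged from 14.2 to 29.0 in 2D and from 12.0 to 17.8 in 3D. It is uncertain, since 45.9% of its 50-nt stretches also occur in transcripts of other genes, led by Acat3. Pmvk, the second kinase of mevalonate, ranged from 5.69 to 11.4 in 2D and from 7.44 to 12.3 in 3D.

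Of the prenyl and squalene steps, Idi1 and Fdft1 were lower, with the weakest support among the 6 called sterol genes. Idi1, the isomerase of isopentenyl diphosphate, gave 44.1, 24.6, 36.9 and 58.9 in 2D and 19.4, 24.9, 26.3 and 13.5 in 3D. The groups overlapped, because the 2D library of mouse 3 lay below the 3D libraries of mice 4 and 5. The log2 fold change of Idi1 was -0.91 (SE 0.30, adjusted p by limma = 0.041), and leaving out any library but the 2D library of mouse 3 or the 3D library of mouse 5 ended the call. Fdft1, the squalene synthase, measured 21.7, 21.9, 25.2 and 24.0 in 2D and 15.2, 20.5, 18.3 and 11.9 in 3D. No 3D library reached the 2D libraries. The log2 fold change of Fdft1 was -0.49 (SE 0.16, adjusted p by limma = 0.041), and leaving out any library but the 3D library of mouse 4 ended the call. Both genes share sequence with others, in 21.3% of the 50-nt stretches of Idi1 and 10.9% of those of Fdft1, and 18.3% of the Fdft1 exon bases overlap other genes, Ctsb on the opposite strand among them. Whether the authors counted by strand is not given in the sources used here.

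Fdps, which makes farnesyl diphosphate, was the most abundant sterol gene, with 142, 79.3, 83.4 and 146 normalized FPKM in 2D and 58.6, 76.9, 98.5 and 59.8 in 3D. The 2D libraries of mice 3 and 4 lay within the 3D range. Its log2 fold change of -0.58 was not called (limma's adjusted p = 0.12), but it was -1.10 in the values as deposited (adjusted p = 0.019). The level of Fdps is uncertain, since 26.7% of its exon bases overlap other genes. Of its 50-nt stretches, 11.7% occur in transcripts of other genes, led by Gm43738. Sqle, the squalene epoxidase, ranged from 30.3 to 51.5 in 2D and from 39.3 to 47.7 in 3D.

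From lanosterol to cholesterol, Hsd17b7 and Ebp were lower. Hsd17b7, a 3-keto reductase that acts during demethylation at carbon 4, stood at 16.97, 15.2, 13.1 and 19.6 in 2D and at 4.23, 8.22, 7.03 and 4.91 in 3D. All 3D libraries were far below the 2D libraries. With a mean of 16.2 ± 2.78 in 2D and 6.10 ± 1.85 in 3D (SD, n = 4), it had the largest fall of the sterol genes, and its log2 value changed by -1.30 (SE 0.21, adjusted p by limma = 0.0020). Ebp, the isomerase that moves the double bond of the sterol ring, gave 20.4, 15, 14.4 and 24.2 in 2D and 9.40, 8.08, 12.5 and 9.08 in 3D. The 3D library of mouse 5 came nearest to the 2D libraries. Its log2 fold change was -0.84 (SE 0.20, adjusted p by limma = 0.011). Mvk, Hsd17b7 and Ebp were the 3 sterol genes that kept their call whichever single library was left out.

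The remaining enzymes of this segment were not called. Lss, which closes the sterol ring, ranged from 5.53 to 6.44 in 2D and from 6.19 to 12.0 in 3D, and Dhcr7, a last-step reductase, from 4.35 to 7.82 and from 5.34 to 9.76. Their log2 fold changes were 0.45 and 0.43 (limma's adjusted p = 0.097 and 0.17), and 0.61 for both in the values as deposited (adjusted p = 0.022 and 0.049). Sc5d, the desaturase next to Dhcr7 in the route, ranged from 38.8 to 47.5 in 2D and from 19.9 to 39.0 in 3D, and its log2 fold change was -0.50 (limma's adjusted p = 0.069). It was called in the values as deposited, at -0.78 (adjusted p = 0.0074). Cyp51, the lanosterol demethylase, varied widely in 3D, from 14.3 in mouse 1 to 68.1 in mouse 5, and covered 29.6 to 61.2 in 2D. Nsdhl ranged from 14.9 to 23.2 in 2D and from 10.8 to 17.2 in 3D, and Tm7sf2, a sterol reductase, from 3.91 to 10.01 and from 5.72 to 9.42.

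**Figure D3:**
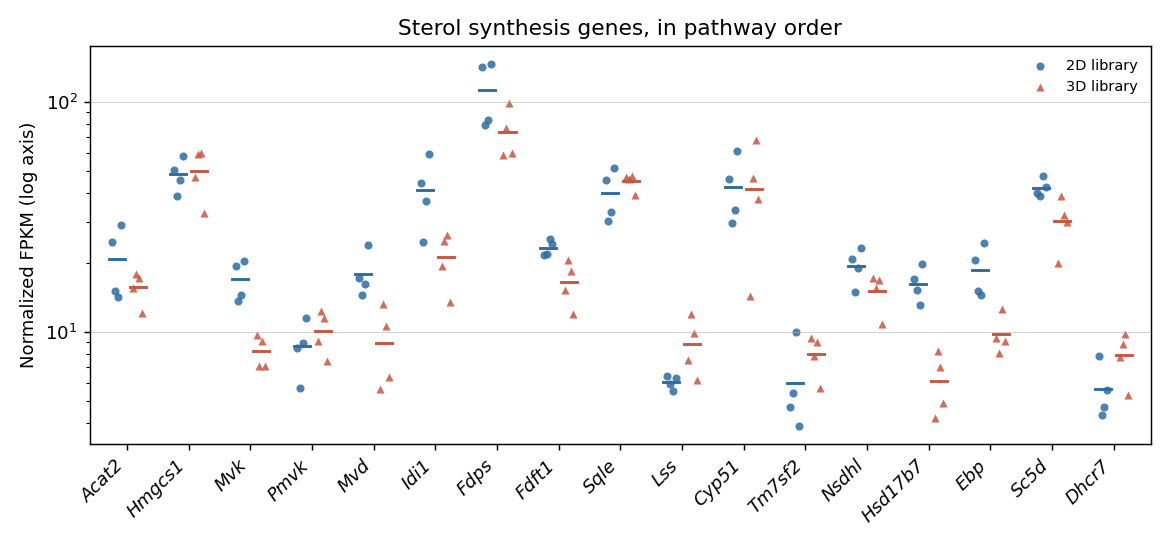
Normalized FPKM on a log axis is plotted for the 17 sterol genes in pathway order, with 1 point per library and a bar at the mean of each culture (2D circles, 3D triangles). Mvk, Mvd, Fdft1, Hsd17b7 and Ebp have all 3D libraries below all 2D libraries, while Hmgcs1, Sqle and Cyp51 overlap widely.

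The sterol genes also differed among the libraries of 1 culture. In 2D, mice 2 and 5 were both above mice 3 and 4 for 13 of 17 sterol genes and both below for 1, Tm7sf2. The order of the 13 was found for 33.4% of genes averaging 1 FPKM or more. For the fatty acid genes, mice 2 and 5 were above for 5 and below for 6. In 3D, mouse 7 was the lowest library for 11 of 17 sterol genes, beside 20.8% of genes averaging 1 FPKM or more. The order of the dividing-cell markers was like that of the sterol genes only in part. Medians of the log2 deviation from each gene's mean were compared. For the sterol genes they were 0.26, -0.20, 0.11 and 0.43 in 2D and -0.26, 0.10, -0.0031 and -0.50 in 3D. For the dividing-cell markers they were 1.09, 0.53, 0.18 and 1.55 in 2D and -0.33, 0.05, -0.99 and -2.04 in 3D. Mice 3 and 4 in 2D, and mice 1 and 5 in 3D, stood in opposite order in the 2 lists. The part of cell division in the order of the sterol genes was not tested.

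With the 2D libraries of mice 3 and 4 left out, 7 sterol genes were lower and 1 was higher in 3D. With those of mice 2 and 5 left out instead, Mvk and Hsd17b7 were the called genes with lower levels, at log2 fold changes of -0.68 and -1.07, and Sqle was called higher at 0.46. Mvd, Idi1, Fdft1 and Ebp were then not called, at -0.74, -0.52, -0.49 and -0.54. The median log2 fold change of the sterol genes was -0.51 and -0.16 in these comparisons. Over all genes tested, 3560 of 18428 were called higher with mice 3 and 4 left out, and 2970 of 18575 with mice 2 and 5 left out. The matching counts of genes called lower are not given here, so the counts of lower sterol genes stand without a background. With only mice 4 and 5, a comparison of 2 with 2 libraries, 0 sterol genes were called. For the 6 sterol genes called with all libraries, the log2 fold changes were then -1.01 for Mvk, -0.68 for Mvd and -0.84 for Idi1. They were -0.33 for Fdft1, -0.99 for Hsd17b7 and -0.83 for Ebp.

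**Figure D4:**
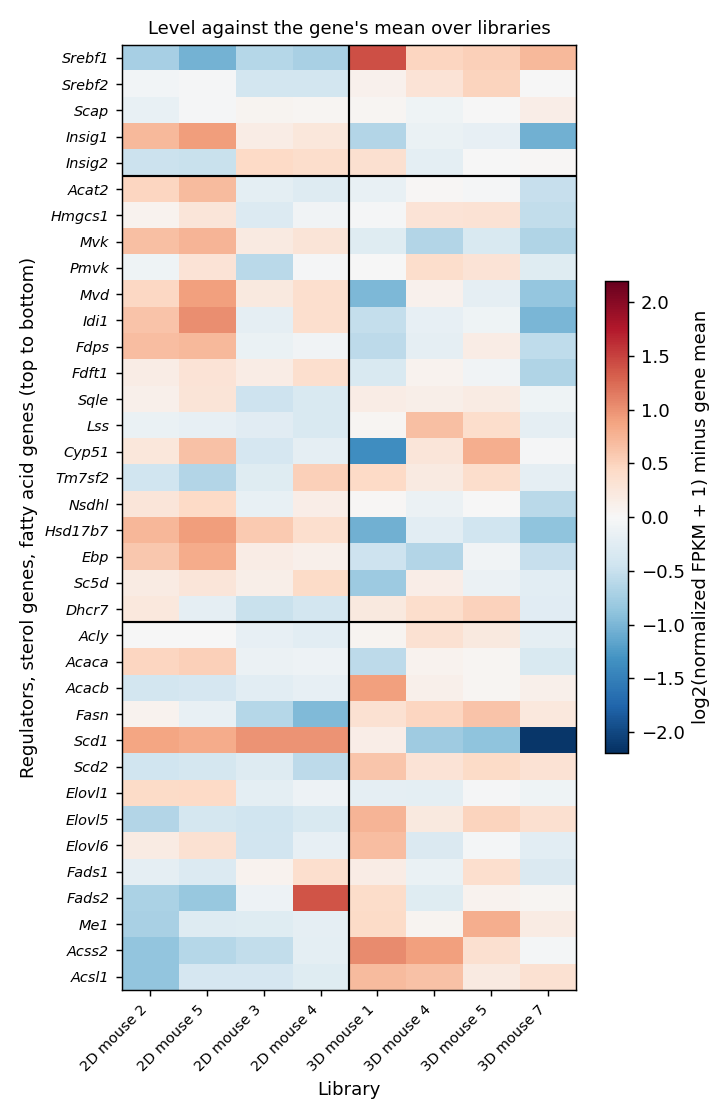
Colour shows the log2(normalized FPKM + 1) of each gene minus its mean over the 8 libraries, for the 36 genes (rows) in every library (columns), with lines between the gene groups and between 2D and 3D. The 2D libraries of mice 2 and 5, placed first, are above those of mice 3 and 4 for 13 of 17 sterol genes, and Scd1 in the 3D library of mouse 7 is the lowest value.

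Within fatty acid synthesis, the genes of acetyl-CoA supply were read first. Acss2, which makes acetyl-CoA from acetate, gave 2.11, 2.88, 3.90 and 2.66 in 2D and 10.6, 9.53, 6.20 and 4.48 in 3D. All 3D libraries were higher, and that of mouse 7 was the closest to 2D. The mean rose from 2.89 ± 0.746 to 7.70 ± 2.85 (SD, n = 4), and the log2 fold change was 1.12 (SE 0.27, adjusted p by limma = 0.013). Acly, which makes acetyl-CoA from citrate, ranged from 70.6 to 82.6 in 2D and from 72.4 to 105 in 3D and was not called. Me1, the malic enzyme that supplies NADPH, measured 21.1, 29.1, 30.6 and 28.5 in 2D and 47.3, 36.7, 61.9 and 39.8 in 3D. The groups did not overlap after normalization, and the 3D library of mouse 5 was the highest. Its log2 fold change was 0.73 (SE 0.18, adjusted p by limma = 0.015) and 0.44 in the values as deposited (adjusted p = 0.072), and 26.5% of its 50-nt stretches occur in transcripts of other genes.

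Fasn, the fatty acid synthase that builds palmitate from acetyl-CoA and malonyl-CoA, stood at 42.4, 25.7, 20.04 and 35.7 in 2D and at 50.8, 55.9, 62.7 and 47.2 in 3D. After normalization, every 3D library was above every 2D library, the nearest being mouse 7 in 3D and mouse 2 in 2D. As deposited, the 2D library of mouse 2, at 48.9, lay above the 3D libraries of mice 1, 4 and 7. Its mean rose from 30.9 ± 9.99 to 54.1 ± 6.71 (SD, n = 4), and the log2 fold change was 0.84 (SE 0.23, adjusted p by limma = 0.020). The value was 0.52 as deposited (adjusted p = 0.14), and the call was lost without the 3D library of mouse 5.

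The acetyl-CoA carboxylases make malonyl-CoA. Acaca, the cytosolic enzyme of synthesis, ranged from 14.95 to 24.3 in 2D and from 10.8 to 17.6 in 3D, was not called, and shares 52.6% of its 50-nt stretches with transcripts of other genes. Acacb, known for the control of fatty acid oxidation at the mitochondrion, was low throughout, with 0.252, 0.407, 0.454 and 0.282 in 2D and 2.10, 0.775, 0.706 and 0.776 in 3D. The 3D libraries were all higher, and that of mouse 1 was far above the rest of its group. Its log2 fold change was 0.59 (SE 0.19, adjusted p by limma = 0.044) on the log2(normalized FPKM + 1) scale, which understates changes of low genes, and the call was lost without any one 2D library or the 3D library of mouse 4 or 7. About 23 fragments were estimated for its lowest library, and at least 96 for every library of the other members. Acacb made up 0.618% to 2.98% of the summed Acaca and Acacb FPKM in 2D and 4.69% to 19.2% in 3D.

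The stearoyl-CoA desaturases, which introduce the first double bond into saturated fatty acids, moved apart. Scd1 measured 47.1, 51.5, 51.3 and 45.4 in 2D and 28.2, 14.4, 13.3 and 5.03 in 3D. All 3D libraries were lower, from mouse 1 as the highest to mouse 7 as the lowest. The mean of Scd1 fell from 48.8 ± 3.06 to 15.2 ± 9.61 (SD, n = 4), and the log2 fold change was -1.83 (SE 0.42, adjusted p by limma = 0.0099). Leaving out the 2D libraries of mice 3 and 4 or those of mice 2 and 5 ended this call at log2 fold changes of -1.71 and -1.81.

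Scd2 was at 124, 139, 113 and 129 in 2D and at 259, 209, 227 and 211 in 3D. It was the most abundant member in 3D, and all 3D libraries lay above all 2D libraries. Its mean rose from 126 ± 10.7 to 226 ± 22.9 (SD, n = 4), and the log2 fold change was 0.84 (SE 0.098, adjusted p by limma = 4.2e-04). In the values as deposited the log2 fold change was 0.26 (adjusted p = 0.085), the widest gap between scalings among the called genes, beside the median of -0.62 for genes of 100 to 1000 FPKM in those values. Scd1 fell by 1.99 on the log2 scale in the values as deposited (adjusted p = 0.0039). Both genes were called in mice 4 and 5 alone, Scd1 at -1.73 (limma's adjusted p = 0.011) and Scd2 at 0.85 (adjusted p = 0.034).

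The share of Scd2 in the summed Scd1 and Scd2 FPKM needs no scaling between libraries. It was 74.3%, 73.4%, 69.6% and 75.2% in 2D and 88.9%, 92.4%, 92.8% and 96.8% in 3D. The means were 73.1% ± 2.47 and 92.7% ± 3.26 (SD, n = 4), so the groups were apart by several times their spread. Few stretches are shared between these genes and others, 4.66% of Scd1 and 4.01% of Scd2.

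**Figure D5:**
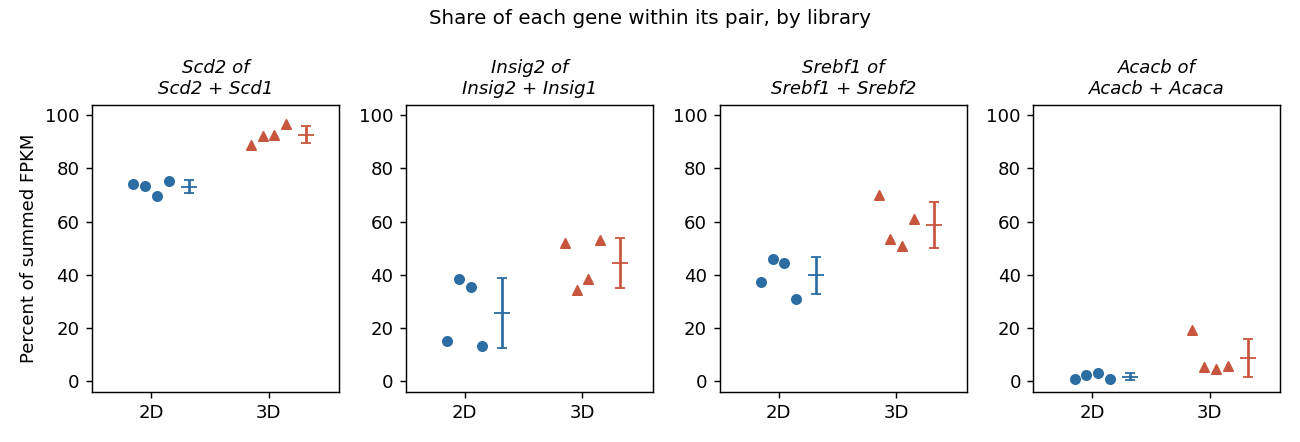
The percent of the summed FPKM of 2 related genes that the first of them contributes is plotted per library for 4 pairs, with the mean and SD of each culture at its side (2D circles, 3D triangles). The shares of Scd2, Srebf1 and Acacb are higher in every 3D library, while those of Insig2 overlap between the cultures.

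Of the elongases, Elovl5, which extends polyunsaturated fatty acids, gave 15.9, 18.5, 20.1 and 19.2 in 2D and 43.4, 29.8, 36.4 and 33.1 in 3D. The groups were well separated. Its mean rose from 18.4 ± 1.80 to 35.7 ± 5.82 (SD, n = 4), and the log2 fold change was 0.91 (SE 0.13, adjusted p by limma = 0.0010). Elovl1, which acts on very long saturated chains, ranged from 31.3 to 49.8 in 2D and from 31.3 to 35.7 in 3D. Elovl6, which extends palmitate to stearate, ranged from 6.32 to 11.4 in 2D and from 6.92 to 14.7 in 3D. Neither was called.

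The desaturases of polyunsaturated fatty acids, Fads1 and Fads2, were not called. Fads1 ranged from 53.4 to 85.2 in 2D and from 52.8 to 85.3 in 3D. Fads2 stood at 63.9, 97.0, 276 and 58.5 in 2D and at 86.5 to 139 in 3D, so that the 2D library of mouse 4, with the highest mesothelial marker sum, exceeded every other library. With the 2D libraries of mice 3 and 4 left out, Fads2 was called higher in 3D. Acsl1, which activates long-chain fatty acids with coenzyme A, measured 2.15, 3.47, 3.78 and 3.49 in 2D and 8.36, 8.02, 5.62 and 6.30 in 3D. No 2D library reached the 3D libraries. The mean of Acsl1 rose from 3.22 ± 0.728 to 7.07 ± 1.32 (SD, n = 4), and the log2 fold change was 0.94 (SE 0.19, adjusted p by limma = 0.0060).

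Leaving out the 2D libraries of mice 3 and 4 gave 7 fatty acid genes higher and 2, Acaca and Elovl1, lower. Scd1 was no longer called, at a log2 fold change of -1.71 (adjusted p by limma = 0.064). Leaving out those of mice 2 and 5 gave 4 higher, Fasn, Scd2, Elovl5 and Acsl1, and 0 lower, with Scd1 at -1.81 (adjusted p by limma = 0.058). Each of these comparisons has 2 libraries fewer in 2D. Over all genes tested, 3560 of 18428 were called higher with mice 3 and 4 left out, and 2970 of 18575 with mice 2 and 5 left out. For genes called lower, no such background is given here.

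The promoters of members were compared for short motifs known from SREBP targets. RefSeq sequences on build GRCm38.p6 were found for 30 of 36 members, and the 250 bases before each transcript start were searched on both strands. A gene was counted if any of its listed starts had a match. The comparison took all 27025 genes with a promoter sequence, whether or not they were expressed here. The CCAAT motif, the box of the factor NF-Y, occurred in 24 of 30 members (80.0%) and in 37.5% of all 27025 genes. It was found in 13 of 14 sterol genes (92.9%), 7 of 11 fatty acid genes (63.6%) and 4 of 5 regulators. GGGCGG, the Sp1 box, occurred in 24 of 30 members against 35.4% of all genes. CACGTG, an E-box, was found in 6 of 30 against 6.86%. TCACNCCAC, a core of the sterol regulatory element, was found in Hmgcs1 and Acsl1, or 6.67% of members against 1.23% of all genes. None of the 4 motifs contains another. A match is a description of the sequence and no evidence of binding, and the reference is C57BL/6J whereas the mice were BALB/c.

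Promoters of 5 genes are printed 5′ to 3′ on the strand of the gene, to set lower, higher and uncalled members side by side, with the CCAAT motif or its complement ATTGG and the sterol regulatory core in capitals. Mvd (chr8:122443423-122443672, minus strand) and Ebp (chrX:8193513-8193762, minus strand) were lower in 3D and have 2 CCAAT motifs each. Fasn (chr11:120824548-120824797, minus strand) and Elovl5 (chr9:77917115-77917364, plus strand) were higher and have 3 and 2. In Fasn, 2 of the 3 overlap within CCAATTGG, which holds the motif on both strands. Hmgcs1 (chr13:119690101-119690350, plus strand), not called, has 3 and the sterol regulatory core 137 bases before its start. Genes called higher and genes called lower carried the same motif.
Mvd: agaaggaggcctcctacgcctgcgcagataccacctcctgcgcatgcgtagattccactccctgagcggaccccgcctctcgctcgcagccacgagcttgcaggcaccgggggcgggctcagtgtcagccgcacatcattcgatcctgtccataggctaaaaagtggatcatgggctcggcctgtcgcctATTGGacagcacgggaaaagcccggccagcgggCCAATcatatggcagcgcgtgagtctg
Ebp: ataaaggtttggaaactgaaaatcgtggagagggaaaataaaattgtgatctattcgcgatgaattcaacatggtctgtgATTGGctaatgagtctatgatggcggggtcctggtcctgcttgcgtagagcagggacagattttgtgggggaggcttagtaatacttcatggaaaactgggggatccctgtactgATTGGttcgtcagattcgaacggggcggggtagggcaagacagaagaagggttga
Fasn: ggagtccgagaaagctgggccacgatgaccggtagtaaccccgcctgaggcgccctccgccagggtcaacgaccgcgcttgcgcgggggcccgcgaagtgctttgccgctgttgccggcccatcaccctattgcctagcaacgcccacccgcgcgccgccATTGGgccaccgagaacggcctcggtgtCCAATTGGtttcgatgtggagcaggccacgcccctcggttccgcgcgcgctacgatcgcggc
Elovl5: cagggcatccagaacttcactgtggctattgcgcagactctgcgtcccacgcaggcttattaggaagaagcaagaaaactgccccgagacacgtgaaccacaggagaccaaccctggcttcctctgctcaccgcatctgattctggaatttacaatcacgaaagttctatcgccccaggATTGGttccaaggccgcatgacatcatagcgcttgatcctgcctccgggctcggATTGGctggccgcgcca
Hmgcs1: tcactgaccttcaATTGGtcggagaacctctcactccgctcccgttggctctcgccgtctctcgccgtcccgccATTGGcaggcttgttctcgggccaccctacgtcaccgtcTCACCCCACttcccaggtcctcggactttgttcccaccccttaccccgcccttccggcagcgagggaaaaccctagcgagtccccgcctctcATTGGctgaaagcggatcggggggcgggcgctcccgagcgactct

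Beyond the members, 36 other genes of lipid synthesis and its control were read from the same fit, of which 35 were tested. Of these, 10 were higher and 5 were lower in 3D, where 21.2% of all genes tested were higher and 20.3% were lower, and the median log2 fold change was 0.03. The largest fall was that of Soat1, which esterifies cholesterol for storage, from 61.8 ± 3.42 to 1.02 ± 0.922 (SD, n = 4), and the log2 fold change was -5.06 (SE 0.29, adjusted p by limma = 1.1e-05). Hacd1, a dehydratase of very long chain fatty acid elongation, fell from 61.5 ± 23.9 to 7.12 ± 3.96. Gpam, the first enzyme of glycerolipid synthesis in mitochondria, fell from 14.1 ± 2.44 to 5.03 ± 0.790. No 3D library overlapped a 2D library in these 3 genes.

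The largest rises were those of Elovl7, Mylip and Acss1. Elovl7, an elongase of long saturated chains, rose from 0.388 ± 0.313 to 11.6 ± 5.31 (SD, n = 4), and the log2 fold change was 3.12 (SE 0.30, adjusted p by limma = 1.6e-04). Mylip, a ubiquitin ligase induced by the sterol-sensing liver X receptors, rose from 3.00 ± 1.63 to 31.4 ± 16.9. Acss1, the mitochondrial counterpart of Acss2, was at 0 in every 2D library and at 7.93, 2.70, 3.69 and 2.87 in 3D. Its deposited level was at least 81.3-fold higher in 3D than the level that 3 fragments would give in a library.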

How the data were processed

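RNA of 8 ADSC cultures was sequenced as rRNA-depleted, directional, paired-end libraries. The authors trimmed the reads, mapped them with TopHat (build mm10 per the labels) and summarized them with Cufflinks. The deposited FPKM values per gene hold no read counts and no quantile normalization, which the study names as its next step. The 18862 genes above 0 in any library were quantile normalized here, converted to log2(FPKM + 1) and fitted with limma 3.58.1 in R 4.3.3, with an intensity trend and without covariates. Benjamini-Hochberg adjustment ran over all genes tested, and genes with an adjusted p below 0.05 were called. The fit was checked on simulated data.

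The members and lists were chosen with earlier results of these data known. All members are named. Of the other lipid and oxidation genes, up to 3 with the largest rise and up to 3 with the largest fall among called genes are named, and markers are given by their lists. Genes under another setting, such as Acaca and Fads2 with 2D libraries left out, were singled out after their values were seen.

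Mice 4 and 5 pair the cultures, as the labels give their numbers in both. Over 12577 genes averaging 1 FPKM or more, deviations of their 2D and 3D libraries from the culture means correlated at -0.05 and -0.11. The labels name separate mice within a culture, so p-values measure the spread between mice together with that between cultures and libraries.

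Depth is not given. It was estimated from steps between low FPKM values of single-transcript genes in GENCODE M21, of which 75.5% to 84.1% lay within 0.15 of whole fragments, as 16.4 to 17.4 M fragments per 2D library and 14.4 to 15.6 M per 3D library. The estimate covers counting error only. Shared 50-nt stretches and exon overlaps come from GENCODE M21, and promoters from RefSeq.

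The alternatives were the values as deposited, median ratio scaling, a pseudocount of 0.1, genes averaging 1 FPKM or more, an unadjusted p below 0.05 joined to a fitted fold over 2 or under 0.5, the mouse number as a replicate block, mice 4 and 5 alone, and leaving out 1 library at a time. Leaving out the 2D libraries of mice 3 and 4, or of mice 2 and 5, and the fold as a ratio of mean levels were chosen after seeing the data. The other assays of the study were not analysed here.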

Additional observations from a re-analysis of the deposited data

Results flagged for a closer look

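In the 3D library of mouse 1, Acacb measured 2.10 normalized FPKM, while the other 3D libraries held between 0.706 and 0.776. The gap to the nearest library was 0.950 of the range of the group, above the limit of Dixon's test for 4 samples. It was the 1 value so marked in 72 groups examined, of which chance marks about 1 in 20. Without this library, Acacb was still called higher in 3D.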

How the results depend on the processing

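With the mouse number as a replicate block, 0 genes were called in any list or among all genes, higher or lower. Without it, 4000 were higher and 3823 lower. The blocked fit leaves 1 residual degree of freedom and takes the culture difference from mice 4 and 5 alone. At an unadjusted p below 0.05 the paired fit held Srebf1, Srebf2, Mvk, Ebp, Fasn, Scd1, Scd2, Elovl5 and Acss2 among the members. The same limit was met by 5216 of all 18862 genes tested and by 4231 of the 12577 genes averaging 1 FPKM or more. With only mice 4 and 5, 1788 genes were higher and 1432 lower, with 1 regulator higher and 0 lower, 0 sterol genes lower, 1 fatty acid gene higher, and 3 other lipid genes higher and 2 lower. The criterion on the fitted fold gave 1990 genes higher and 2069 lower, with 1 regulator and 1 fatty acid gene higher, 1 sterol gene lower and 6 other lipid genes higher. With the fold taken as the ratio of mean levels, 1 regulator and 3 fatty acid genes were higher and 3 sterol genes were lower. The values as deposited and median ratio scaling each gave 1 regulator, 2 sterol genes and 4 fatty acid genes higher and 8 other lipid genes lower, and a median log2 fold change of the fatty acid genes of 0.20 and 0.19. That median was 0.21 among genes averaging 1 FPKM or more, where Acacb is not tested. Leaving out the 2D libraries of mice 3 and 4 gave 1 regulator and 1 sterol gene higher, 2 fatty acid genes lower and a median of 0.57 over the fatty acid genes. Leaving out those of mice 2 and 5 gave 0 regulators lower, 1 sterol gene higher and 2 lower, and 4 fatty acid genes higher and 0 lower. With each library left out in turn, 1 to 2 regulators and 0 to 1 sterol genes were higher, 3 to 6 sterol genes were lower, and the median of the fatty acid genes was 0.30 to 0.62. The causes were not tested. A pseudocount of 0.1 kept the call of all 36 members, and no call of a member reversed under any alternative. Estimated depths of 14.4 to 17.4 M fragments gave every member but Acacb at least 96 fragments in each library.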

Other observations

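Of 10 genes of fatty acid oxidation, 3 were higher and 3 were lower in 3D, with a median log2 fold change of 0.06. These shares are near those of all genes averaging 1 FPKM or more, of which 27.1% were higher and 26% were lower. Acadl, a long-chain acyl-CoA dehydrogenase, rose from 21.6 ± 4.43 to 56.6 ± 16.96 normalized FPKM (SD, n = 4), and Acadm, the medium-chain enzyme, from 15.7 ± 2.67 to 22.2 ± 1.36. Ppara, a transcription factor of fatty acid oxidation, was low and rose from 0.0818 ± 0.0429 to 0.426 ± 0.171. Acaa2, a mitochondrial thiolase, fell from 30.0 ± 6.94 to 14.97 ± 2.68, and Slc25a20, the carnitine-acylcarnitine carrier, from 17.9 ± 3.23 to 9.46 ± 1.84.

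Cpt1a, which admits fatty acids to mitochondria, measured 12.6, 48.4, 46.6 and 16.6 normalized FPKM in 2D (mice 2, 3, 4 and 5) and 8.47 to 12.8 in 3D. The higher 2D values belong to mice 3 and 4, whose libraries hold mesothelial markers, and the 2D library of mouse 2 lay within the 3D range. The log2 fold change of Cpt1a was -1.32 (SE 0.44, adjusted p by limma = 0.046), and the call was lost without any 1 of 6 libraries, those of mice 3 and 4 in 2D and all 4 of 3D. Without both 2D libraries of mice 3 and 4 it was -0.49 (adjusted p = 0.10).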
